A study of Helianthus annuus with 9 samples.

Results

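In developing sunflower seeds, 112 annotated genes were abundant on every day sampled. They were chosen by their measured values: at least 20 FPKM in each of the 9 libraries, and a largest of the 3 day means under 4 times the smallest. FPKM counts fragments relative to transcript length and to the library, so levels can be set side by side between genes and each level is a part of its library and not an amount per seed. The 112 genes were 0.213% of the 52513 features with numeric gene IDs, in an mRNA table of 65535 features whose other 13022 were assembled loci. Since FPKM chose the genes, their FPKM levels and changes are given as a description, with no test. Seeds of the Helianthus annuus line L-1-OL-1, which has a high oleic acid content, came from plants grown in a field with no treatment, and the same line was used at day 7, day 22 and day 37. Each day had 3 libraries of total RNA depleted of ribosomal RNA. The labels do not say what the days count from, which part of the seed was used, or whether each library came from other plants. In such bulk samples, fewer cells of a type and less RNA per cell cannot be told apart.

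An oilseed first grows by cell division, then fills with oil and storage protein, and then matures and dries, and the transcripts of 1 phase largely give way to those of the next. Genes that every living cell uses, such as those for ribosomes, protein turnover, energy metabolism and the cytoskeleton, are commonly transcribed throughout, and genes of even level are sought as references for quantitative PCR. Product names for the IDs stand in none of the tables used here, so no role is given to any of the 112 genes and the seed tissue could not be checked against its markers. In RefSeq's table for assembly HanXRQr2.0-SUNRISE were 109 of the 112, all as protein-coding genes. The others, with IDs 110926977, 110897303 and 110920970, were not matched. The genes are therefore described by level and by course over the days.

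On the deposited scale, few genes at 20 FPKM or more in every library of day 7 stayed so in every late library. Among the numeric IDs, 4288 reached 20 FPKM in every library of day 7, 963 of these also did so in every library of day 22, and 132 also in every library of day 37. Of these 132, 20 had day means that differed 4-fold or more and were left out, 12 highest on day 7, 5 on day 22 and 3 on day 37. A further 31 assembled loci met both thresholds but carry no gene ID. Depth in reads is unknown, and the table's FPKM summed to at least 542177 in the day 7 libraries, to 228550 to 331317 in those of day 22 and to 149870 to 277263 in those of day 37. The library numbered 3 of day 37 stood apart, with 312 numeric genes at 20 FPKM or more against 1622 and 1171 in the other libraries of that day. The size of the group rests on it: without it 307 genes met the rule, 101 of them among the 112, and without both late libraries numbered 3 it was 501 genes, 107 of them among the 112. The size also depends on the scaling: 313 genes met the rule with quantile normalization and 288 with median-of-ratios scaling.

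At the threshold of 20 FPKM, the genes just inside were LOC110890907 with a lowest library value of 20.01, LOC110868057 with 20.1 and LOC110883846 with 20.15. The genes just outside it were LOC110912288 with 19.87, LOC110912020 with 19.84 and LOC110872410 with 19.65. At the fold between day means, LOC110877981 with 3.95, LOC110886672 with 3.90 and LOC110900222 with 3.89 lay just inside. LOC110910892 with 4.15, LOC110927371 with 4.17 and LOC110873063 with 4.29 lay just outside. Values on the 2 sides of each threshold lay close together.

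The median level of the 112 genes was 128.6, 138.2 and 136.1 FPKM in the libraries of day 7, 81.9, 67.6 and 46.0 on day 22, and 158.0, 118.9 and 32.9 on day 37. Libraries of day 7 were alike, whereas the first of day 37 had the highest median of all 9 libraries and the last the lowest. Of the 112 genes, 81 had their lowest value in the library numbered 3 of day 37 and 27 in that of day 22, while 57 had their highest value in the first library of day 37. Within day 22, the library numbered 3 was the lowest for 110 genes, 98.2% of them, against 66.6% of the 26364 numeric genes tested and 1409 of the 10037 assembled loci tested. Within day 37 it was the lowest for 111 genes, against 64.9% of the numeric genes and 15.6% of the assembled loci. LOC110930221 and LOC110937379 were the exceptions on day 22 and LOC110885465 on day 37. Over the 112 genes the first library was at a median of 1.83 times the last on day 22 and 4.66 times on day 37. Of the 31 assembled loci that met the same thresholds, the library numbered 3 was the lowest for 26 on day 22 and 25 on day 37. Among the 20 numeric genes left out by the fold alone, it was the lowest for all on day 37. On day 22 it was so for all but LOC110916399 and the gene with ID 110926809. A low library numbered 3 was thus not particular to the 112 genes. The part of library composition in the levels of the 112 genes was not tested.

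**Figure D1:**
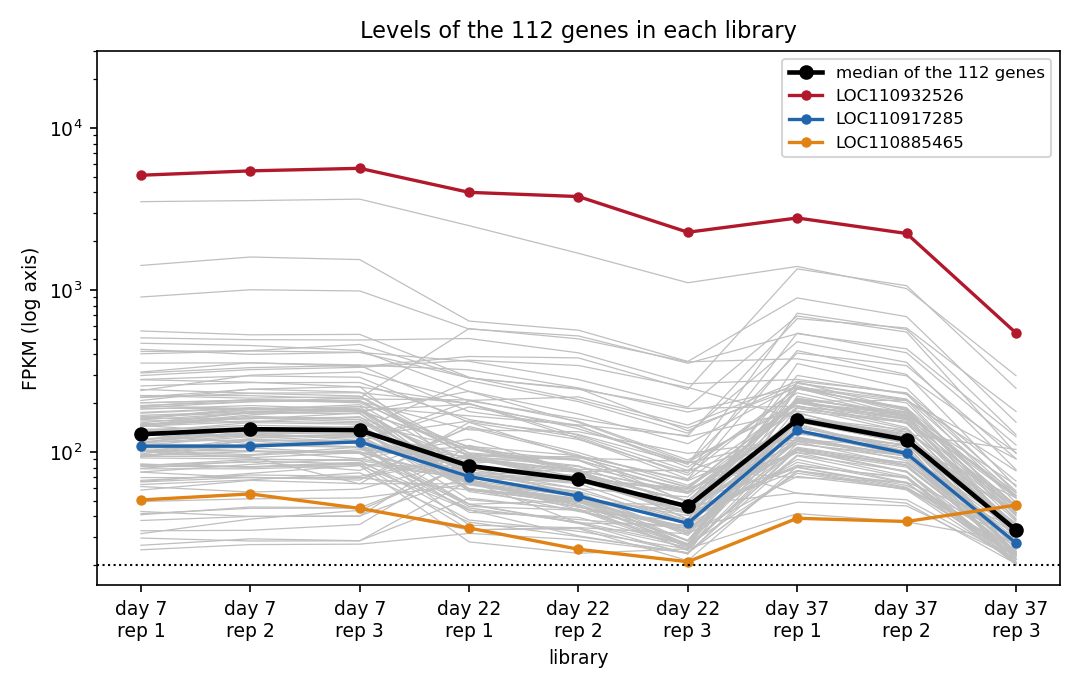
FPKM (log axis) of the 112 genes in each of the 9 libraries, by day and replicate, with 1 grey line per gene joining its values, the black line the median, coloured lines 3 named genes and the dotted line 20 FPKM. The lines lie close to level across day 7, and go down within day 22 and day 37 to the library numbered 3, where LOC110885465 crosses above the median on day 37.

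Of the table's whole sum, the group took up more in the first 2 libraries of each late day than on day 7, and less in the last. Its summed FPKM was 5.02%, 5.23% and 5.29% of the table's sum in the libraries of day 7, 6.11%, 5.83% and 4.79% on day 22, and 9.65%, 8.73% and 3.76% on day 37. Day means were 5.18% ± 0.137 (SD, n = 3), 5.58% ± 0.701 and 7.38% ± 3.17, and the values of day 37 lay on both sides of those of the other days. Over features with numeric IDs alone the mean shares were 5.69%, 7.03% and 10.5%, and every late library, the last of day 22 with 6.59% and of day 37 with 7.24% included, lay above those of day 7, which ran from 5.51% to 5.81%. Among the 100 features with the highest FPKM, 9, 9 and 10 belonged to the group in the libraries of day 7, 14, 14 and 11 on day 22, and 23, 22 and 9 on day 37. A few genes made up much of the sum: over the means of the 9 libraries LOC110932526 held 17.1% of it, the first 2 genes 27.2% and the first 10 genes 44.9%. The mean over the 9 libraries was 100 FPKM or more for 62 genes and 300 or more for 10.

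The most abundant gene, LOC110932526, had 5110.2, 5438 and 5638 FPKM on day 7, 4006, 3774 and 2272 on day 22, and 2783, 2233 and 542 on day 37. Its day means were 5395 ± 266 (SD, n = 3), 3351 ± 941 and 1853 ± 1168. Its mean was lower on each later day, yet it ranked 7, 6 and 5 in the whole table on day 7, first in every library of day 22, and 2, 2 and 10 on day 37. The second, LOC110877981, had 3509.8, 3563 and 3638 FPKM on day 7, 2495, 1685 and 1108 on day 22, and 1397, 1019.8 and 296 on day 37. It followed a like course, with the day 37 mean 0.253 times that of day 7, the lowest such ratio of the 112 genes. In both, the 3 libraries of day 7 were above every later library. LOC110868526 had 1417, 1597 and 1540.4 FPKM on day 7, 642, 564 and 362 on day 22, and 893, 684 and 153 on day 37. LOC110912729 had 905, 1003 and 986 FPKM on day 7, 574, 520.1 and 353 on day 22, and 537, 433 and 124 on day 37. Both were likewise higher in every library of day 7 than later, and their late days overlapped.

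The other genes of the 10 most abundant took several courses. LOC110865090 had 311, 356 and 336 FPKM on day 7, 388, 381 and 243 on day 22, and 1349.5, 1062 and 247 on day 37. Its days 7 and 22 overlapped, and its first 2 libraries of day 37 stood far above both, while the last lay among the day 22 values. LOC110870624, with 307, 331 and 342 FPKM on day 7, 177, 144 and 83.7 on day 22, and 718, 570.0 and 128 on day 37, was lower in every library of day 22 than on day 7 and highest in the same 2 libraries. LOC110899555 had 429.9, 400.1 and 412 FPKM on day 7, 363, 279.8 and 189 on day 22, and 690.5, 549.9 and 97.8 on day 37, so that its days 7 and 37 overlapped. LOC110897679 had 506, 493 and 491 FPKM on day 7, 501, 409 and 264 on day 22, and 280.3, 228 and 48.5 on day 37. Its level on day 22 reached that of day 7 in the first library only, and every library of day 37 was below day 7. LOC110915405, with 188, 204 and 215 FPKM on day 7, 577, 499 and 360.0 on day 22, and 376, 295 and 98.9 on day 37, was higher in every library of day 22 than on day 7. LOC110903735, with 558, 529 and 532 FPKM on day 7, 289, 211 and 140.4 on day 22, and 249.7, 179.9 and 40.7 on day 37, was highest in every library of day 7.

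**Figure D2:**
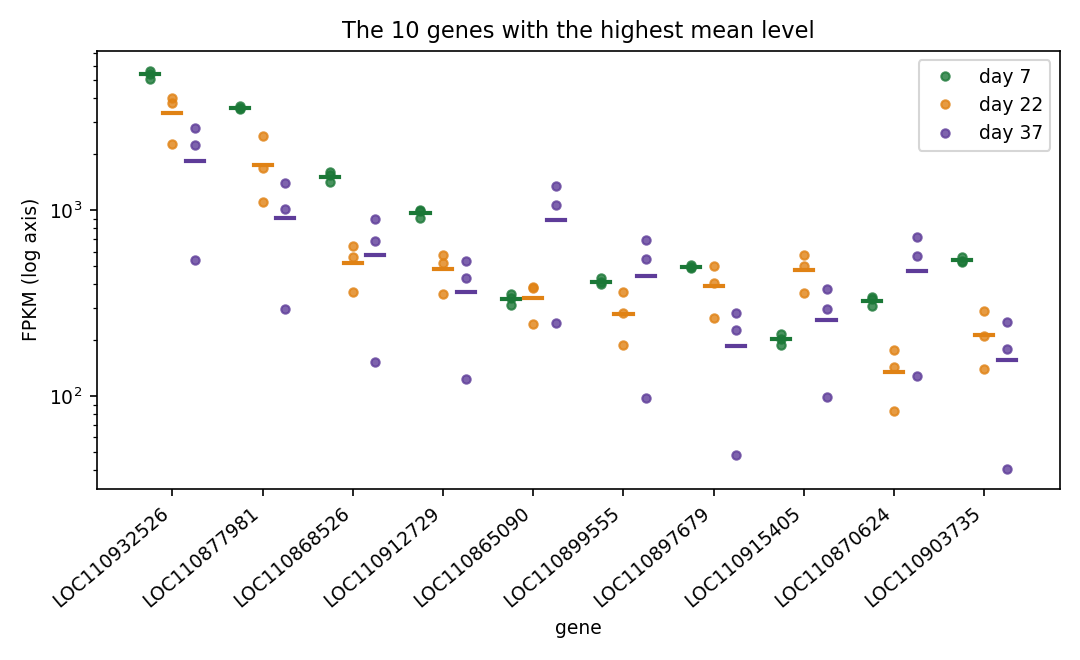
FPKM (log axis) of the 10 most abundant of the 112 genes, 1 position per gene on the horizontal axis, with a point for each of the 3 libraries of a day and a bar at the day mean. LOC110932526 lies between 542 and 5638 FPKM, LOC110865090 and LOC110870624 are highest in 2 libraries of day 37, and LOC110915405 is highest on day 22.

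A day mean was highest on day 7 for 68 genes, on day 37 for 39 and on day 22 for 5, and it was lowest on day 22 for 72 genes and on each of the other days for 20. The most frequent order, with 49 genes, was day 7, then day 37, then day 22, and 23 genes had day 37 above day 7 above day 22. The mean was lower on each later day in 19 genes and higher on each later day in 16, whereas 5 genes peaked on day 22. On the deposited scale the lowest mean was thus most often on day 22. The rule limits how far a gene can fall by day 37, and these orders were not counted over all features. Nothing about the group is therefore read from them. The fold between the largest and the smallest day mean had a median of 2.58 and ran from 1.04 to 3.95. It was under 1.5 in 6 genes, under 2 in 26 and 3 or more in 33. The order of the days depends on the scaling: with quantile normalization the mean was highest on day 7 in 11 genes and on day 37 in 85, and with median-of-ratios scaling in 29 and 79. The lowest day was day 22 in 49 genes and day 7 in 53 with quantile normalization, so that the commonest lowest day turned, and day 22 in 79 with median-of-ratios scaling.

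Between day 7 and day 22, 84 of the 112 genes were lower in every library of day 22 and 6 were higher, where 41.7% of the 36401 features tested were lower and 47.0% higher. Between day 22 and day 37, 3 genes were lower and 3 higher without overlap, against 26.2% and 7.89% of the features tested. Between day 7 and day 37, 42 genes were lower and 2 higher on day 37, against 47.2% and 42.4%. Without both late libraries numbered 3, a setting added here after the data were seen, the genes higher without overlap numbered 20, 83 and 46 in these comparisons, and those lower 84, 10 and 43. The share of all features was not taken for that setting, and fewer libraries leave less room for overlap. The comparisons share libraries, and the rule itself limits how far a member can differ between days, so nothing is read from these counts.

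Calls were taken from a limma fit of all 36401 features, where a call needs an adjusted p (Benjamini-Hochberg) below 0.05 and a log2 change of 1 or more either way. By these, 33 of the 112 genes had fallen and 1, LOC110939612, had risen from day 7 to day 22, where 24.9% of features had fallen and 34.1% had risen. From day 22 to day 37, 0 had risen and 0 had fallen, where 0.843% and 16.6% of features had. In this fit 8 of the 112 genes, 7.14%, had an unadjusted p under 0.05, and 21 had a log2 change of at least 1 in size. Shares of all features were not taken for these counts, so nothing is read from them. Between days 22 and 37, deviations from the day means correlated at 0.77 for the libraries numbered 1 and at 0.78 for those numbered 3. For those numbered 2 the value was 0.15. The deviations of 3 libraries from their mean sum to 0, so these values are not independent of each other. No label used here states pairs. With the replicate number as a block, 6 genes had risen and 1 had fallen between these days, where 1.11% and 18.4% of features had. With the block on these 2 days only, a fit added after the data were seen, 13 had risen and 7 had fallen, where 1.20% and 18.7% of features had. From day 7 to day 37, 25 had fallen and 2, LOC110894450 and LOC110911147, had risen, where 38.8% and 39.4% of features had. In none of these comparisons were 63 genes called. These fits use the same FPKM as the rule and support nothing about the group. The counts changed when a single library was left out, and a fit with fewer libraries can also call fewer features. The fallen genes of day 22 numbered 15, 11 and 11 without the libraries of day 7 in turn. They numbered 23, 13 and 6 without those of day 22, and 44, 29 and 61 without those of day 37. The fallen genes of day 37 against day 7 numbered 7, 6 and 5 without the libraries of day 7 in turn. They numbered 17, 15 and 21 without those of day 22, and 45, 26 and 12 without those of day 37. Without the last library of day 37, 60 genes had risen from day 22 to day 37 and 19 from day 7 to day 37. For the fits with a library left out, the shares of all features called were not taken.

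The median log2 change of the 112 genes, on the log2(FPKM + 1) scale, was -1.05 from day 7 to day 22, 0.42 from day 22 to day 37 and -0.65 from day 7 to day 37. Over all features tested it was 0.09, 0.01 and -0.32, and over the 2741 numeric genes with a mean of 20 FPKM or more -1.33, -1.15 and -2.68. The genes that reached 20 FPKM on average thus had lower medians, a contrast that the rule on every library and on the fold fixes. The direction of the group's median is not fixed by the deposited scale. With quantile normalization it was 0.06, 0.82 and 0.83, with all features at -0.11, 0.04 and -0.49, and with median-of-ratios scaling -0.63, 1.13 and 0.47, with all features at 0.53, 0.49 and 0.61. Without the last library of day 37 the change from day 7 to day 37 was 0.03.

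The highest ratios of the day 37 to the day 7 mean were those of LOC110884597, LOC110921478, LOC110911147 and LOC110865090, the last described above. LOC110884597 had 29.4, 28.2 and 28.2 FPKM on day 7, 66.4, 46.5 and 28.5 on day 22, and 141, 109.6 and 20.6 on day 37, a day 37 mean 3.16 times that of day 7, the highest of the 112. LOC110921478 had 61.2, 56.5 and 58.9 FPKM on day 7, 89.8, 76.1 and 38.5 on day 22, and 267, 212 and 53.8 on day 37. In both, the last library of day 37 lay below day 7 while the others lay far above it. LOC110911147, with 26.5, 29.1 and 28.3 FPKM on day 7, 51.8, 43.8 and 37.0 on day 22, and 116, 96.6 and 32.4 on day 37, was higher in every library of day 37 than in any of day 7. LOC110894450, with 42.9, 39.97 and 40.02 FPKM on day 7, 109.8, 78.1 and 76.4 on day 22, and 129, 110.3 and 52.1 on day 37, was higher in every late library than on day 7. These were the 2 genes with no overlap upwards between day 7 and day 37.

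Next to LOC110877981 and LOC110903735, the lowest ratios of the day 37 to the day 7 mean were those of LOC110885766 and LOC110937684. LOC110885766 had 469, 454 and 423 FPKM on day 7, 236, 152 and 86.3 on day 22, and 203, 142 and 29.4 on day 37. LOC110937684 had 222, 215 and 219 FPKM on day 7, 93.1, 67.3 and 47.3 on day 22, and 103, 74.9 and 20.4 on day 37. In both every library of day 22 was below every library of day 7, and the late days overlapped.

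On day 22 the genes farthest above the other days were LOC110939612, LOC110915405 and LOC110942861. LOC110939612 had 32.6, 32.8 and 35.6 FPKM on day 7, 89.9, 91.6 and 87.3 on day 22, and 55.4, 50.7 and 21.9 on day 37, and the library numbered 3 of day 22, low for 110 of the 112 genes, was close to the others here. LOC110942861 had 296, 322 and 333 FPKM on day 7, 368, 342 and 250.1 on day 22, and 161, 132 and 46.1 on day 37. Its days 7 and 22 overlapped, and every library of day 37 lay below both.

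The lowest levels on day 22 relative to the other days were in LOC110868386, LOC110886672 and LOC110926443. LOC110868386 had 96.9, 119 and 117 FPKM on day 7, 47.7, 36.5 and 23.4 on day 22, and 221, 164 and 33.7 on day 37. LOC110886672 had 143, 162 and 159 FPKM on day 7, 72.5, 59.4 and 35.8 on day 22, and 351, 247 and 55.7 on day 37. LOC110926443 had 135, 146 and 142 FPKM on day 7, 64.3, 50.6 and 25.6 on day 22, and 245, 188 and 38.1 on day 37. In all 3 every library of day 22 lay below day 7, and the first 2 libraries of day 37 lay above it, while the last lay within the day 22 range.

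Over the 9 libraries the coefficient of variation (SD as a percent of the mean) of the 112 genes ran from 27.4% to 79.5%, with a median of 52.7%. The smallest was that of the gene with ID 110926977, which had 108, 101 and 97.8 FPKM on day 7, 108, 76.5 and 56.7 on day 22, and 157, 129 and 104 on day 37. LOC110878434, second, had 49.4, 51.3 and 52.0 FPKM on day 7, 63.0, 51.5 and 42.2 on day 22, and 76.8, 59.9 and 22.7 on day 37, with day means of 50.9 ± 1.35 (SD, n = 3), 52.2 ± 10.4 and 53.1 ± 27.7 that are the closest of any gene. Its libraries of day 37 nevertheless spread from 22.7 to 76.8 FPKM. LOC110885465 had 50.5, 55.0 and 44.8 FPKM on day 7, 33.9, 25.0 and 21.0 on day 22, and 38.9, 37.2 and 47.0 on day 37. It and the gene with ID 110926977 share a level in the last library of day 37 close to or above that of other libraries, where 81 of the 112 genes were at their lowest. LOC110898841 had 75.0, 69.3 and 69.4 FPKM on day 7, 58.2, 48.6 and 47.0 on day 22, and 55.8, 48.2 and 20.4 on day 37. Gene ID 110897303 had 69.4, 69.5 and 68.8 FPKM on day 7, 92.2, 76.9 and 55.5 on day 22, and 112, 94.7 and 30.4 on day 37. LOC110894099 had 41.5, 44.8 and 45.0 FPKM on day 7, 33.0, 34.1 and 31.2 on day 22, and 70.7, 59.0 and 29.0 on day 37. Which genes are steadiest depends on the scaling: of these 6, 0 were among the 6 steadiest with quantile normalization, 1, LOC110898841, with median-of-ratios scaling, 2 without both late libraries numbered 3 and 3 without the last library of day 37. The coefficient within a day had a median of 4.63% on day 7, 29.5% on day 22 and 61.2% on day 37.

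A relative level, the FPKM of a gene divided by the median of the 112 genes in the same library, does not depend on how a library was scaled. This measure was chosen after the data were seen and was not used by the rule, though it comes from the same values. Its median coefficient of variation within a day was 4.65% on day 7 against 4.63% in FPKM, but 9.47% on day 22 and 11.7% on day 37, well below the values in FPKM. The low level of most genes in the late libraries numbered 3 was thus largely common to the group. The fold between day means of the relative level had a median of 1.87, was under 1.5 in 31 genes and 4 or more in 6, and ran up to 5.78.

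On this measure, from day 7 to day 22, 44 were higher and 45 lower without overlap of the libraries, where 62.8% of all features tested were higher and 23.8% lower against the same median. From day 22 to day 37, 31 were higher and 38 lower, against 2.30% and 41.6%. From day 7 to day 37, 45 were higher and 46 lower, against 46.6% and 42.6%. A division by their median makes about as many of the 112 genes rise as fall, so the balance of directions is not a result, and nothing particular to the group is read from these counts. Without both late libraries numbered 3, 47 genes were higher on day 37 than on day 22 and 51 lower, with no share of all features taken for that setting.

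The genes described next were chosen after their relative levels were seen. LOC110939612 had the largest fold between days, with relative levels of 0.253, 0.237 and 0.262 on day 7, 1.10, 1.35 and 1.90 on day 22, and 0.351, 0.426 and 0.666 on day 37. LOC110915405 had 1.46, 1.48 and 1.58 on day 7, 7.05, 7.38 and 7.82 on day 22, and 2.38, 2.48 and 3.01 on day 37. Day 22 was 5.78 times day 7 in the first and 4.92 times in the second, and day 37 lay between, with no overlap of day 22 with either other day. LOC110894795 had 0.243, 0.278 and 0.320 on day 7, 1.04, 1.398 and 1.44 on day 22, and 0.828, 0.929 and 1.00 on day 37. LOC110894450 had 0.333, 0.289 and 0.294 on day 7, 1.34, 1.16 and 1.66 on day 22, and 0.817, 0.928 and 1.58 on day 37. Both were above day 7 in every late library. LOC110942861, with 2.30, 2.33 and 2.45 on day 7, 4.50, 5.05 and 5.43 on day 22, and 1.02, 1.11 and 1.402 on day 37, was above day 7 in every library of day 22 and below it in every library of day 37. LOC110885465 had the widest spread within a day, with 0.393, 0.398 and 0.329 on day 7, 0.414, 0.370 and 0.456 on day 22, and 0.246, 0.313 and 1.43 on day 37, and its last library of day 37 stood apart from all others. The gene with ID 110926977 did the same with 0.843, 0.731 and 0.719 on day 7, 1.32, 1.13 and 1.23 on day 22, and 0.995, 1.08 and 3.15 on day 37. Both are among the 6 genes with the smallest coefficient of variation in FPKM, and both departed from the group in that 1 library.

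**Figure D3:**
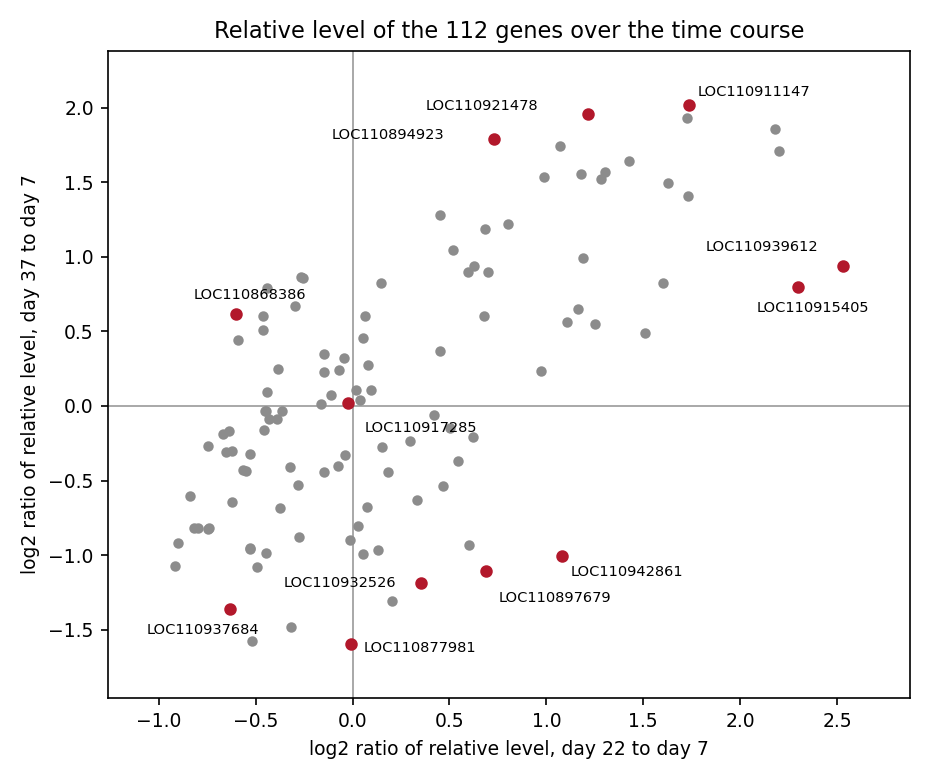
Log2 ratio of the mean relative level on day 37 to that on day 7 (vertical axis) against the ratio on day 22 to day 7 (horizontal axis), 1 point per gene, with named genes in red. The genes fill all 4 quadrants, LOC110917285 lies at the origin, and LOC110939612 and LOC110915405 lie farthest right.

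The departure of a gene from the group was measured as its log2 relative level in a library less its mean over the 9 libraries. The SD of this departure had a median of 0.46 over the 112 genes, was under 0.2 in 11 and ran up to 1.14 in LOC110939612. The closest follower of the group was LOC110917285, with an SD of 0.05 and 108, 109 and 115 FPKM on day 7, 70.4, 53.4 and 36.3 on day 22, and 136, 97.8 and 27.4 on day 37. LOC110873539, with an SD of 0.10, LOC110899004, with 0.11, LOC110890080, with 0.12, and LOC110909942, with 0.13, came next. These genes were the most even in relative level, though their FPKM followed the falls and rises of the median. None of the 6 genes with the smallest coefficient of variation in FPKM was among these 5.

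**Figure D4:**
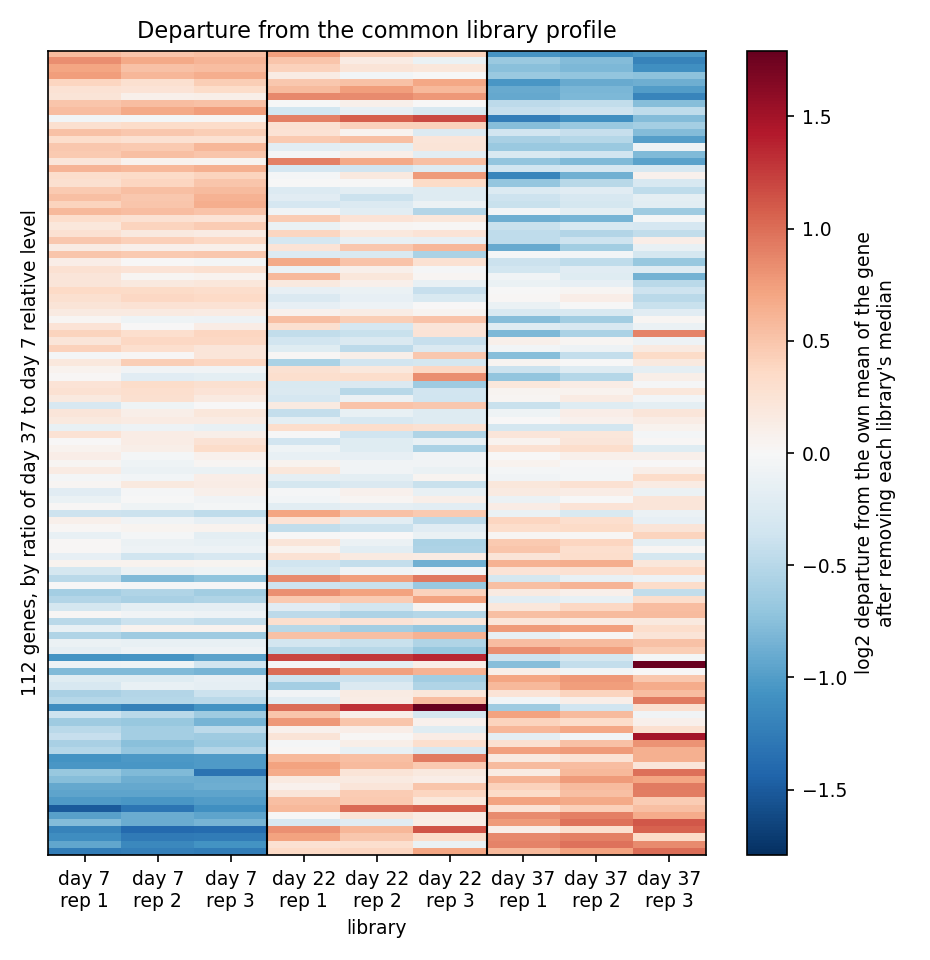
Departure of each of the 112 genes (rows) from the group in each of the 9 libraries (columns), in log2 units, with genes ordered by the ratio of day 37 to day 7 in relative level and the colour scale symmetric about 0. Values ran from -1.50 in LOC110894795 to 1.79 in LOC110939612, and the 3 libraries of a day share most of the pattern.

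Some genes kept a nearly fixed ratio to another through all libraries. Over the 6216 pairs of the 112 genes the SD of the log2 ratio had a median of 0.64, and the 3 smallest values are described here because they were the smallest. LOC110873590 had 279, 269.6 and 252 FPKM on day 7, 199, 121 and 68.0 on day 22, and 422, 301 and 60.9 on day 37. LOC110904490 had 112, 110.0 and 107 FPKM on day 7, 81.8, 53.7 and 26.7 on day 22, and 187, 133 and 25.0 on day 37. Their ratio averaged 2.39 with an SD of 0.07 on the log2 scale. LOC110884473 had 168, 178 and 181 FPKM on day 7, 56.9, 45.8 and 33.7 on day 22, and 105, 83.2 and 23.2 on day 37. LOC110868797 had 155, 159.8 and 174 FPKM on day 7, 59.2, 42.9 and 32.7 on day 22, and 102, 80.6 and 24.3 on day 37. These levels were nearly equal throughout, with a mean ratio of 1.03 and an SD of 0.07. LOC110877591 and LOC110890907 had a mean ratio of 1.55 and an SD of 0.09. All 9 libraries enter these ratios, and a ratio of genes within a library does not depend on how that library was scaled. The part of library composition in the steady ratios was not tested.

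In the gene order of the assembly, 3 pairs of the 112 genes were neighbours with no coding gene between them, and 2 more pairs had 1 between them. LOC110894925 had 84.1, 80.4 and 83.8 FPKM on day 7, 79.5, 71.1 and 55.7 on day 22, and 189.8, 168 and 56.1 on day 37. Its neighbour LOC110894923 had 186, 185 and 190.0 FPKM on day 7, 167, 147 and 126 on day 22, and 665, 582 and 178 on day 37. Both were highest in the first 2 libraries of day 37, and the SD of their log2 ratio was 0.32, below the median of all pairs. LOC110926443 and LOC110926286 had an SD of 0.48, and LOC110867635 and LOC110867634 one of 0.47. LOC110926286 had 165, 174 and 172 FPKM on day 7, 62.9, 51.0 and 28.1 on day 22, and 142, 104 and 24.1 on day 37, lower on day 22 than on day 7 like its neighbour, but with every library of day 37 below day 7. LOC110867635 had 127, 137 and 137 FPKM on day 7, 275, 205 and 130.5 on day 22, and 479, 357 and 77.9 on day 37, so that its mean was higher on each later day. LOC110867634 had 58.1, 66.7 and 63.7 FPKM on day 7, 63.5, 50.4 and 33.3 on day 22, and 116, 82.7 and 23.3 on day 37, with a lower day 22 mean than day 7. The pairs with 1 gene between were LOC110884607 with LOC110884593 and LOC110899556 with LOC110899555, with SDs of 0.38 and 0.39.

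Transcripts assembled from the reads, listed for 7 sequences of the genome, named 8 of the 112 genes, 7.14% against 6.84% of all numeric mRNA genes. Of these, LOC110884607, LOC110888080 and LOC110942861 had an assembled isoform that shares a splice junction, LOC110932526 had a transcript overlapping on the same strand, and LOC110882664, LOC110896653, LOC110928777 and LOC110939612 had one on the other strand. The transcript at LOC110932526, the most abundant gene, is a single exon at NC_035433.1 from 15778374 to 15780151 on the plus strand, as the files give it. Their genome build is not given in sources used here. None of the 112 IDs was listed in the lncRNA table. Strand was not stated for the counting, so reads of a gene and of its antisense transcript cannot be told apart.

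Circular RNA (circRNA), made when a downstream exon end is joined back to an upstream exon start, was measured apart from the FPKM that chose the genes. None of the 3482 circRNA had both ends inside one of the 4 same-strand transcripts assembled at the 112 genes. LOC110942861, at NC_035433.1 from 6000001 to 6007102, was overlapped by 5. The leading one ran from 5943489 to 6000329. Its end lay at an exon end of a transcript assigned to another gene, LOC110942822. Its start lay neither at an exon start of the assembled transcripts nor 1 base before one. Its signal, a scaled value with no unit in the file headers, was 2236, 2443 and 2686 on day 7, 5055, 2870 and 3264 on day 22, and 2824, 1241 and 511 on day 37. It ranked 10 by mean among all circRNA and was 1 of 27 above 0 in all 9 libraries. Every library of day 22 was above every library of day 7 and above every one of day 37, with day means of 2455, 3730 and 1525. By exact permutation of the libraries, two-sided, the differences of day 22 from day 7 and of day 37 from day 22 each had p = 0.1, or 0.15 adjusted over the 3 pairs, and that of day 37 from day 7 had p = 0.4. With 3 libraries a day 0.1 is the smallest p possible, so these tests cannot reach 0.05. The test of the leading circRNA alone was not planned, and nothing about LOC110942861 is read from it. By the same exact test the summed signal of all 5 gave p = 0.1, 0.2 and 0.4, or 0.3, 0.3 and 0.4 adjusted. Of the other 4, 3 end at exon ends of LOC110942861 itself, and each of the 4 was above 0 in 1 or 2 libraries.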

How the data were processed

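RNA of sunflower seeds was measured in 9 libraries, 3 for each of 3 days, grouped by the labelled day. The submitters' processing notes name RSEM 1.2.12, HISAT2 2.0.4, DESeq2 1.4.5 and Bowtie2 2.2.5, without roles. Gene levels were deposited by the authors as FPKM, per the file headers, and circRNA levels as a scaled signal, deposited with no stated scaling. No read counts were used here, so depth is unknown. The mRNA table ends at a row limit of old spreadsheets and may be part of a longer one.

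The 112 genes, the lists and the rule for named genes (extremes of level, variation, day ratios and thresholds, and gene neighbours) were chosen with earlier results of these data known. The fit used limma 3.58.1 in R 4.3.3 on log2(FPKM + 1), for features that reached 1 FPKM in 3 or more libraries, with trended, robust empirical Bayes, tested on simulated data. The simulated noise was independent between features, so the fit was not tested under deviations that many features of a library share. Its p-values rest on the spread among these libraries, which may be technical. Other steps used Python 3.11.15 with scipy 1.17.1, pandas 2.3.3, matplotlib 3.10.9 and numpy 2.4.6. Alternatives were other minima, folds and pseudocounts, no filter, quantile and median-of-ratios scaling, a replicate block and libraries left out. Deviations of equal-numbered libraries from their day means correlated at 0.77, 0.15 and 0.78 between days 22 and 37, so these numbers were taken as pairs on the data alone, and at -0.06 to 0.06 with day 7, which was not. Since deviations from a day mean balance out, these values are not independent of each other. Lists by product name, promoter motifs, protein identity and a marker check could not be run, since no product names or sequences were used here.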

Additional observations from a re-analysis of the deposited data

Results flagged for a closer look

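Signal in the lncRNA table, which chose none of the 112 genes, was seen at 2 assembled loci on the strand opposite LOC110882664. These loci were flagged because their mean was 0 on day 7 and above 0 on day 37, so that difference is not a result. LXLOC_005608 was listed at 0 in the 3 libraries of day 7, at 0.87, 1.19 and 1.68 FPKM on day 22, and at 1.54, 2.04 and 2.28 on day 37, with a day 37 mean of 1.95 ± 0.378 (SD, n = 3). LXLOC_005609 was listed at 0 on day 7, at 0.60, 0.77 and 1.01 on day 22, and at 1.05, 1.10 and 1.66 on day 37, with a mean of 1.27 ± 0.339. In both loci the library numbered 3 was the highest of each late day, whereas LOC110882664 had 93.4, 119 and 114 FPKM on day 7, 35.3, 34.0 and 23.6 on day 22, and 104, 75.7 and 23.7 on day 37. Both loci were matched to the assembled transcripts by number, strand was not stated for the counting, and the part of reads from the gene itself was not tested. How often the library numbered 3 is highest at other loci of the lncRNA table was not counted.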

How the results depend on the processing

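The number of genes meeting the rule was 299 at a minimum of 10 FPKM, 36 at 40 FPKM, 26 at a fold under 2, 313 with quantile normalization (92 of them among the 112), 288 with median-of-ratios scaling (91 among the 112) and 501 without both late libraries numbered 3, a setting that leaves fewer values to pass. With a fold under 8 or day medians it was 126 and 113. Leaving out 1 library at a time gave 103 to 307. Genes called risen from day 7 to day 22 numbered 25 with quantile normalization, 7 with median-of-ratios scaling and 4 without both late libraries numbered 3, and those fallen 18 with no filter and 0 with quantile normalization. From day 22 to day 37 the risen numbered 39, 63 and 44 under these 3 settings, and the fallen 5 with quantile normalization and 1 without both late libraries. From day 7 to day 37 the risen numbered 1 with a pseudocount of 0.1, 1 with no filter, 45, 36 and 19 under the 3 settings, and the fallen 16 with no filter and then 0, 3 and 12. With 1 library left out, the risen and fallen ranged from 0 to 4 and 6 to 61 between days 7 and 22, from 0 to 60 and 0 to 2 between days 22 and 37, and from 0 to 19 and 5 to 45 between days 7 and 37. Under quantile normalization the group's median log2 change turned to 0.064 between days 7 and 22 and to 0.83 between days 7 and 37, and with median-of-ratios scaling the latter was 0.47. Over numeric IDs alone the group's share of summed FPKM was 5.69% on day 7 and 7.03% on day 22. The highest day was day 7, day 22 and day 37 in 11, 16 and 85 genes with quantile normalization, and day 7 and day 37 in 29 and 79 with median-of-ratios scaling; the lowest was day 7 in 53 and day 37 in 10 with the first, and day 37 in 6 with the second. CircRNA signal at the genes was 0 with both ends inside and averaged 3118 over the libraries with any overlap. For the calls, shares of all features were not taken under these settings. The causes were not tested.

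Library numbers were taken as pairs between days 22 and 37 only, from the correlation of their deviations. With the replicate block, 6 genes had risen and 1 had fallen from day 22 to day 37, 4 had risen and 29 had fallen from day 7 to day 37, and 1 had risen and 46 had fallen from day 7 to day 22. With the replicate block of days 22 and 37 only, added after the data were seen, the risen and fallen were 13 and 7, 7 and 39, and 4 and 61 in the same order. For these fits the share of all features called was taken only from day 22 to day 37, as given above. Nothing about the group is read from the counts against day 7. The unknown depth allows no counting error for any FPKM.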

Other observations

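The assembled locus MXLOC_000266 was matched by number alone to the locus of the assembled isoform of LOC110942861. That locus also holds transcripts assigned to LOC110942822 and LOC110942831. MXLOC_000266 had 45.9, 42.9 and 47.1 FPKM on day 7, 138, 73.5 and 67.1 on day 22, and 54.0, 40.2 and 13.8 on day 37. Its level on day 22 was above day 7 in every library, while that of LOC110942861 overlapped between these days. Among the circRNA of this stretch, the one from 5966814 to 6005271 on NC_035433.1 was at 4150 in the first library of day 22 and at 0 in all others.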
